A study of Triticum aestivum with 13 samples.

Results

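Of 61179 probe sets on the wheat GeneChip, 10 divided the 4 lines of this experiment into 2 pairs, with every biological repeat of one pair well above every biological repeat of the other. A probe set is a group of short probes meant to read 1 transcript, though some can match several. Its value is given here as log2 signal, that is, log2 of the deposited intensity after values under 16 were raised to 16. The lowest possible value, the floor, is therefore 4. The 4 lines can be paired in 3 ways, namely Tugela with TugelaDn1, with TugelaDn2 or with TugelaDn5. A probe set was counted when the lowest of the 6 higher repeats exceeded the highest of the 6 lower repeats by at least 1 on the log2 scale, a distance called the gap below, and when the mean of the higher 6 was 8 or more. Since these values chose the probe sets, the difference between the pairs is described without a test. Only differences between the lines inside a pair were tested.

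The lines were hexaploid wheat (Triticum aestivum). Tugela (genotype Dn0) is susceptible to the Russian wheat aphid, while TugelaDn1 (genotype Dn1, labelled antibiosis), TugelaDn2 (Dn2, tolerance) and TugelaDn5 (Dn5, antibiosis and antixenosis) are near-isogenic resistant lines. All plants, those of Tugela included, had been fed upon by biotype SA1 for 48 h at 10 aphids per plant, and total RNA came from every leaf but the first. Plants without aphids are not part of the comparison, and a level that a line already had before infestation cannot be told apart from one reached during it. Each line had 3 biological repeats, and repeat 3 of TugelaDn5 was hybridised to 2 arrays, which were averaged. Whether a repeat was a single plant or a pool is not given in the sources used here, so the p-values measure only the spread between these samples.

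Dn genes are resistance loci that were crossed from donor wheats into Tugela. Near-isogenic lines are made by repeated crossing back to the recurrent parent, after which they share most of the genome but keep a donor segment around the selected gene and sometimes others elsewhere. Antibiosis means that the plant harms the aphid, antixenosis that the aphid avoids the plant, and tolerance that the plant grows on despite feeding. In a hexaploid, near-identical gene copies lie in 3 subgenomes, and a probe set may read 1 of them or several. Transcripts that fall or rise in pairs of such lines can therefore differ in amount, in the copy expressed or in the sequence under the probes, and these cannot be told apart from array signal. No sequence of the probes or transcripts was used here.

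The tissue was checked against photosynthesis genes, of which only petC and FBP are given here. Seed storage and dividing-tissue genes, also planned for this check, are not given. petC, the Rieske iron-sulfur protein of the cytochrome complex between the photosystems, lay between 15.32 and 16.06 in all repeats on Ta.861.1.S1_at, and FBP, a fructose bisphosphatase, between 10.96 and 11.86 on Ta.439.1.S1_at. Their second probe sets were far lower, with medians of 4 for petC (TaAffx.128418.105.S1_at) and 6.77 for FBP (TaAffx.106041.1.S1_at). The median over all probe sets was 6.17.

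The pairing was uneven. Tugela with TugelaDn1 against TugelaDn2 with TugelaDn5 accounted for 8 of the 10 probe sets, 3 of them higher and 5 lower in Tugela and TugelaDn1. Tugela with TugelaDn5 against TugelaDn1 with TugelaDn2 accounted for the other 2, both lower in Tugela and TugelaDn5. The pairing that sets the lines labelled antibiosis, TugelaDn1 and TugelaDn5, against Tugela and TugelaDn2 gave 0. That count depends on the required level of 8. With a higher mean under 8, a gap of at least 1 was found in 5 probe sets for this pairing. It was found in 2 for Tugela with TugelaDn1 and 1 for Tugela with TugelaDn5. When any separation of the 6 and 6 repeats was accepted, however small, and only the level of 8 was kept, 698 probe sets (1.14% of all) divided Tugela with TugelaDn1, 133 (0.217%) Tugela with TugelaDn5 and 207 (0.338%) Tugela with TugelaDn2 from the other lines. At a gap of 0.5 these counts had dropped to 21, 4 and 2. By limma, a linear model test fitted to all 12 repeats, 1.47%, 0.533% and 0.654% of all probe sets had an adjusted p under 0.05 for the same pairings in the same order, but as the members were chosen on this difference nothing is read from it for them. The test compares the mean of one pair of lines with that of the other, so a single line that stands apart can also give a call. These shares are therefore not counts of divisions of pair against pair.

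**Figure D1:**
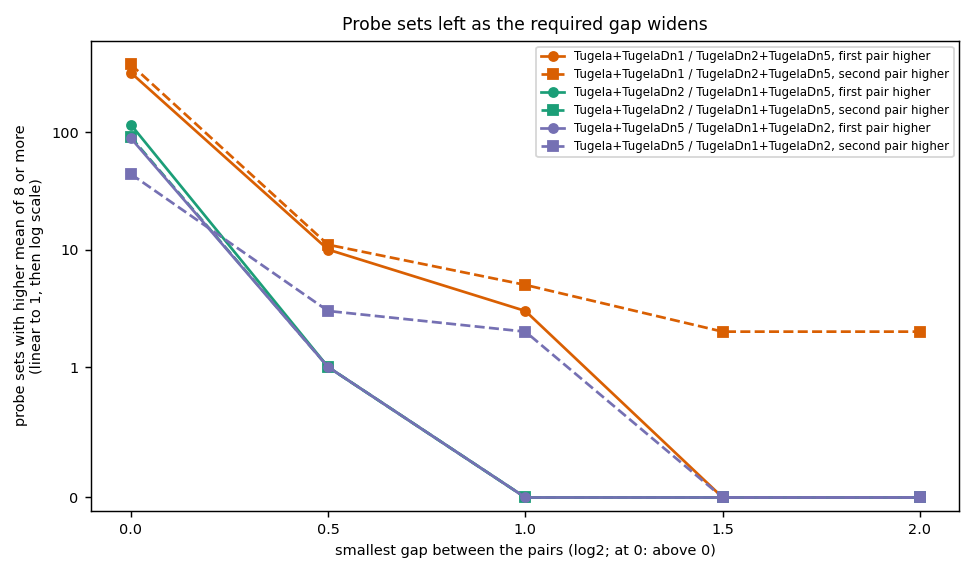
Number of probe sets (y axis, linear up to 1 and logarithmic above) whose 6 repeats of one pair of lines all exceeded the 6 of the other by the gap on the x axis (log2), for each pairing (colour) and direction (line style), with a higher mean of 8 or more. Tugela with TugelaDn1 against TugelaDn2 with TugelaDn5 kept 8 probe sets at a gap of 1 and 2 at a gap of 2, whereas no probe set of another pairing was left at 1.5.

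For comparison, the same rule was applied to each line against the other 3. TugelaDn5 stood apart in 312 probe sets, 81 higher and 231 lower, TugelaDn2 in 17, Tugela in 9 and TugelaDn1 in 1. Together these made 339, against 10 for lines taken in pairs. These counts describe the lines, and with groups of 3 and 9 repeats in place of 6 and 6 they are not strictly alike.

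The clearest division was that of Ta.23352.1.S1_at, with a gap of 4.75. Its log2 signal was 5.84, 6.01 and 5.14 in the repeats of Tugela and 4.62, 5.57 and 4.87 in those of TugelaDn1. It was 10.76, 11.64 and 11.82 in TugelaDn2 and 12, 12.07 and 11.88 in TugelaDn5. The transcript was thus dimmer than the median probe set in all 6 repeats of Tugela and TugelaDn1, although never at the floor, and bright in all 6 of TugelaDn2 and TugelaDn5. The means of the pairs, 11.70 and 5.34, differed 81.7-fold, and the folds between single lines ran from 53.6 (TugelaDn2 over Tugela) to 124.6 (TugelaDn5 over TugelaDn1). How far signal this dim stands above background was not measured. The size of the fold depended on the floor, as the pairs differed 51.7-fold with the floor raised to 6 on the log2 scale and 25.9-fold with it at 7. The tables used here pair it with no gene, and it is the only probe set of its transcript cluster, that is, of the group of expressed sequences that shares the number after Ta.

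Transcript cluster Ta.3087 was read by both of its probe sets on the array, and both were among the 10. On Ta.3087.2.A1_at the repeats lay at 8.40, 8.54 and 8.33 in Tugela and at 8.35, 8.76 and 8.66 in TugelaDn1. They lay at 11.62, 12.18 and 12.36 in TugelaDn2 and at 12.69, 12.47 and 12.35 in TugelaDn5. Here the lower pair was well above the array median and tightly grouped, between 8.33 and 8.76, and the pairs differed 13.7-fold (12.28 against 8.51) with a gap of 2.86.

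On Ta.3087.2.A1_x_at the same division was narrower. Tugela had 11.07, 10.99 and 10.97 and TugelaDn1 10.36, 10.88 and 10.78, whereas TugelaDn2 had 12.28, 12.23 and 12.39 and TugelaDn5 12.69, 12.48 and 12.73. The pairs differed 3.08-fold with a gap of 1.16, the smallest difference of the 10 probe sets. The suffix _x_at marks probes that can also match other transcripts. Both probe sets carry the name of the same transcript, so they are a single observation read in different ways, and the 10 probe sets stand for 9 transcript clusters at most.

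The other probe sets brighter in TugelaDn2 and TugelaDn5 were dim in the lower pair. TaAffx.52428.1.S1_at was at 4, 4.48 and 7.03 in Tugela and at 5.16, 6.21 and 5.45 in TugelaDn1. It was at 8.37, 8.56 and 8.63 in TugelaDn2 and at 8.55, 9.04 and 8.82 in TugelaDn5. Tugela repeat 1 lay at the floor. Tugela repeat 3 was the highest of the lower 6, and the gap of 1.34 was 2.17 without that repeat. The difference between the pairs was at least 9.68-fold with the floor of 4, and 5.50-fold with a floor of 6.

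Ta.7275.1.S1_at was at 4, 6.58 and 5.65 in Tugela and at 6.48, 6.41 and 4.10 in TugelaDn1. It was at 8.11, 8.22 and 7.60 in TugelaDn2 and at 9.43, 8.89 and 8.76 in TugelaDn5. The lower lines scattered over more than 2 log2 units (SD 1.31 and 1.35, n = 3 each), the higher ones far less (SD 0.33 and 0.35). The pairs differed at least 7.81-fold with the floor of 4 and 4.78-fold with a floor of 6, and the gap of 1.03 put this probe set just inside the threshold.

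Among the 3 probe sets that were brighter in Tugela and TugelaDn1, only Ta.3795.1.S1_x_at is paired with a gene, LOC543256, a protein-coding gene to which the tables used give no function. Its repeats lay at 11.91, 12.49 and 12.22 in Tugela and at 13.63, 12.57 and 13.98 in TugelaDn1. They lay at 10.16, 10.34 and 10.11 in TugelaDn2 and at 10.34, 10.09 and 10.62 in TugelaDn5. The probe set was bright in every line, and its pairs differed 5.74-fold (12.80 against 10.28) with a gap of 1.28. As its name ends in _x_at, the signal may not come from LOC543256 alone. The step from Tugela to TugelaDn1 was 47.2% as large as the step between the pairs, the largest such share of the 10 probe sets.

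Ta.28496.1.A1_x_at was at 9.58, 10.48 and 9.90 in Tugela and at 10.32, 9.61 and 10.94 in TugelaDn1. It was at 8.09, 7.29 and 6.83 in TugelaDn2 and at 8.09, 8.42 and 8.38 in TugelaDn5. The pairs differed 4.88-fold with a gap of 1.16. The other probe set of its cluster, Ta.28496.1.A1_at, separated the same pairs by a narrower gap that left it out of the 10. Its line means were 8.89 ± 0.51 in Tugela and 9.72 ± 0.72 in TugelaDn1, against 6.58 ± 0.63 in TugelaDn2 and 7.86 ± 0.16 in TugelaDn5 (SD, n = 3 each), a difference between the pairs of 2.08.

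Ta.10329.23.S1_at was at 10.22, 10.07 and 11.15 in Tugela and at 10.97, 10.82 and 10.12 in TugelaDn1. It was at 8.47, 8.68 and 8.95 in TugelaDn2 and at 8.18, 8.29 and 8.25 in TugelaDn5. The pairs differed 4.26-fold with a gap of 1.12, and no repeat was dim. Its transcript cluster has 39 probe sets, far more than any other here, which allowed the division to be looked for in its neighbours. None of the other 38 separated the 6 and 6 repeats with Tugela and TugelaDn1 higher. Separation in the opposite direction was not looked for. Only 15 of them had a mean of 8 or more in Tugela and TugelaDn1, and some lay at the floor in both pairs, where no division could show. Over all 38, the difference between the pairs had a median of -0.01 and ranged from -0.67 to 1.48, and 16 of the 38 were higher in Tugela and TugelaDn1. In the nearest, Ta.10329.11.A1_at, only TugelaDn2 was low throughout, at 4.46 ± 0.34 against 6.83 ± 0.12 in Tugela, 6.82 ± 0.53 in TugelaDn1 and 6.22 ± 1.25 in TugelaDn5 (SD, n = 3 each).

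**Figure D2:**
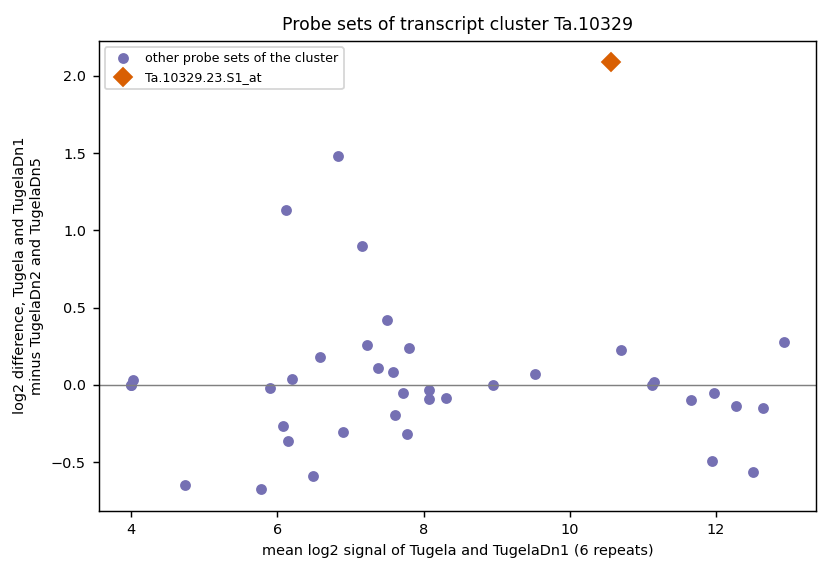
Probe sets of transcript cluster Ta.10329, with the mean log2 signal over the 6 repeats of Tugela and TugelaDn1 on the x axis and the log2 difference between these and the 6 repeats of TugelaDn2 and TugelaDn5 on the y axis. Ta.10329.23.S1_at (diamond) lies at 2.09, while the other 38 (circles) lie between -0.67 and 1.48.

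The other pairing, Tugela and TugelaDn5 below TugelaDn1 and TugelaDn2, was found in Ta.7926.1.A1_at and TaAffx.9022.1.S1_at, each the only probe set of its cluster. Ta.7926.1.A1_at was at 7.51, 6.18 and 6.25 in Tugela and at 8.53, 5.99 and 7.06 in TugelaDn5. It was at 10.67, 10.75 and 10.21 in TugelaDn1 and at 9.79, 10.03 and 11.49 in TugelaDn2. TugelaDn5 repeat 1 was the highest of the lower 6, and the gap was 1.26 with it and 2.28 without it. The pairs differed 11.9-fold (10.49 against 6.92).

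TaAffx.9022.1.S1_at was at the floor in 3 repeats. It lay at 4.35, 4 and 4 in Tugela and at 4, 6.51 and 4.52 in TugelaDn5. It lay at 7.52, 8.18 and 9.58 in TugelaDn1 and at 8.16, 8.51 and 7.69 in TugelaDn2. The difference was at least 13.1-fold with the floor of 4, but 8.10-fold with a floor of 5 and 4.56-fold with one of 6. It was the closest of all to the threshold, with a gap of 1.01. TugelaDn5 repeat 2 was the highest of the lower 6, and the gap was 3.00 without that repeat. Its value in TugelaDn5 repeat 3 was itself uncertain, as the 2 arrays of that repeat read 4 and 5.04.

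**Figure D3:**
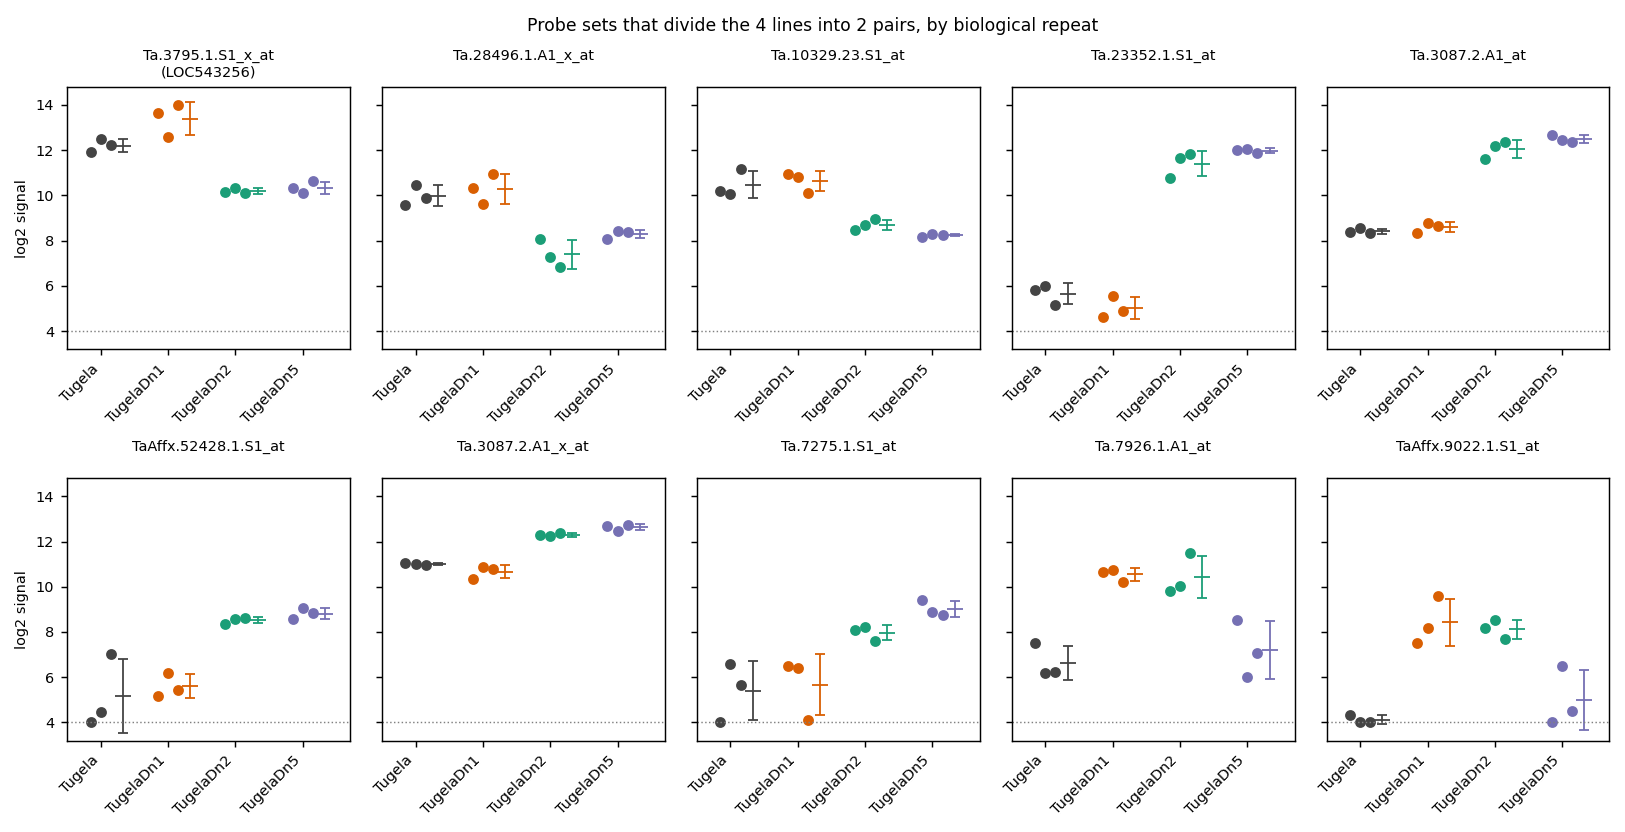
Log2 signal (y axis) of the 10 probe sets in the 3 biological repeats of each line (points), with the mean and SD beside them and the floor of 4 as a dotted line. Ta.23352.1.S1_at shows the widest separation (4.62 to 6.01 against 10.76 to 12.07), and TaAffx.9022.1.S1_at the narrowest gap (1.01), with a wide scatter in TugelaDn5.

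Some further features of the 10 can be described. In 7 of the 10 probe sets TugelaDn2 belonged to the higher pair, and in 4 of these TugelaDn2 repeat 1 was the lowest of the higher repeats. The lower pair had a mean under 8 in 6 of the 10 and at least 1 repeat at the floor in 3. Among the 10, 3 had names ending in _x_at, and 6 were alone in their cluster. The repeated hybridisations of TugelaDn5 repeat 3 differed by at most 0.10 for 7 of the probe sets, and by 0.39 for Ta.3795.1.S1_x_at, 0.68 for Ta.10329.23.S1_at (7.91 and 8.59) and 1.04 for TaAffx.9022.1.S1_at.

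It was then asked whether the lines of a pair differed from each other. No such difference passed the test: 0 of 8 probe sets were called by limma for TugelaDn1 against Tugela (0.00817% of all probe sets were called) and 0 of 8 for TugelaDn2 against TugelaDn5 (1.29% of all). Likewise 0 of 2 were called for TugelaDn5 against Tugela (2.07% of all) and 0 of 2 for TugelaDn1 against TugelaDn2 (0.0736% of all). At shares this low, 0 calls among so few probe sets would be usual for any probe sets of the array. The absence of calls is therefore not read as a property of the members. The limma adjusted p-values of these 20 differences ran from 0.475 to 1, and with eBayes fitted with trend and robust options 0 were called as well. At an unadjusted p under 0.05 the counts were 1, 0, 0 and 0. That 1 was Ta.3795.1.S1_x_at (LOC543256), which was 2.28-fold higher in TugelaDn1 than in Tugela (13.39 ± 0.74 against 12.20 ± 0.29, SD, n = 3 each, a log2 difference of 1.19 with an SE of 0.33, limma adjusted p = 0.482).

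These tests leave room for sizeable differences, as the half-width of the 95% confidence interval ran from 0.36 (Ta.3087.2.A1_x_at) to 1.65 (Ta.7275.1.S1_at) on the log2 scale. For Ta.23352.1.S1_at the interval was -1.43 to 0.14 for TugelaDn1 minus Tugela and -1.36 to 0.21 for TugelaDn2 minus TugelaDn5, against a difference of 6.35 between the pairs. For Ta.3087.2.A1_at it was -0.31 to 0.64 and -0.93 to 0.02, against 3.77. For Ta.7926.1.A1_at it was -0.96 to 2.05 for TugelaDn5 minus Tugela and -1.40 to 1.62 for TugelaDn1 minus TugelaDn2, against 3.57. Selection also favours probe sets with little spread inside the pairs, since a wide spread closes the gap.

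Inside the pair of TugelaDn2 and TugelaDn5, TugelaDn2 had the lower mean in 7 of 8 probe sets, among them all 5 in which this pair was the brighter, 2 of which carry the name of the same transcript. Over the whole array 47.3% of probe sets were higher in TugelaDn2 than in TugelaDn5, and 48.8% of those above the median level. The median absolute difference between these lines was 0.46 for the 8 probe sets, 0.32 for all and 0.25 for those above the median level, where every member lies. The 3 repeats of each line did not overlap in 4 of the 8 (16.2% of all probe sets), namely Ta.10329.23.S1_at, Ta.23352.1.S1_at, Ta.3087.2.A1_x_at and Ta.7275.1.S1_at. For TugelaDn1 and Tugela the median absolute difference was 0.32 for the 8 probe sets, 0.30 for all and 0.21 for those above the median level, and the repeats did not overlap in 2 of the 8 (10.7% of all), Ta.3795.1.S1_x_at and Ta.3087.2.A1_x_at. In the other pairing the repeats overlapped for both probe sets, so that 0 of 2 were apart for TugelaDn5 and Tugela (18.1% of all) and 0 of 2 for TugelaDn1 and TugelaDn2 (13% of all). The shares of probe sets without overlap include dim ones near the floor. They were not taken for those above the median level alone, so the counts of members are not strictly alike. For the remaining pairs of lines the directions are given only as counts, as the probe sets are too few to read a lean from them. TugelaDn1 had the higher mean than Tugela in 6 of 8 (50.7% of all probe sets). The probe sets of Ta.3087 went opposite ways here, by 0.17 on Ta.3087.2.A1_at and -0.34 on Ta.3087.2.A1_x_at. TugelaDn5 was above Tugela in 2 of 2 (51.1% of all), and TugelaDn1 above TugelaDn2 in 2 of 2 (50% of all).

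**Figure D4:**
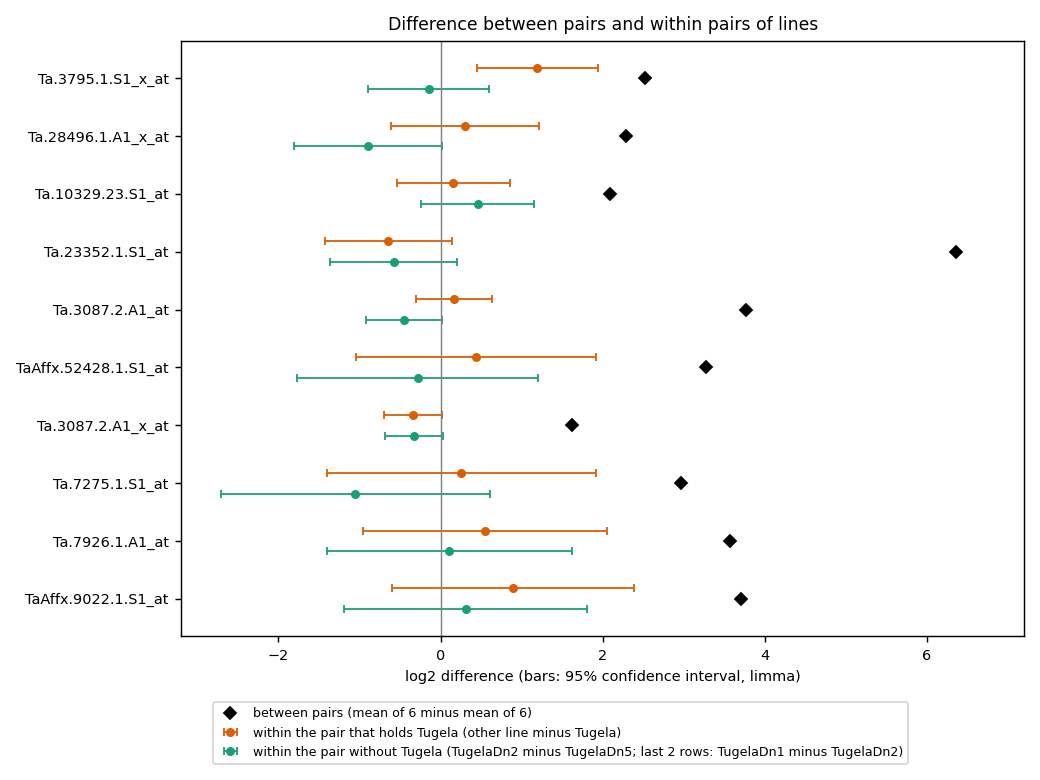
Log2 difference (x axis) between the pairs of lines (diamonds, mean of the 6 higher minus mean of the 6 lower repeats) and between the lines inside each pair (circles with 95% confidence interval from limma) for the 10 probe sets. All 10 diamonds lie at 1.63 or above, and the differences inside the pairs lie between -1.05 and 1.19. The rule itself asked for a gap of at least 1 between the pairs and favours little spread inside them.

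The members just inside the gap of 1 were TaAffx.9022.1.S1_at (1.01), Ta.7275.1.S1_at (1.03) and Ta.10329.23.S1_at (1.12). Just outside were TaAffx.114127.1.S1_x_at (0.97) and Ta.22984.1.S1_x_at (0.77), both higher in Tugela and TugelaDn1, and Ta.97.1.S1_at (0.85), lower in Tugela and TugelaDn5. TaAffx.114127.1.S1_x_at had 8.16 ± 0.20 in Tugela and 10.05 ± 1.33 in TugelaDn1, against 5.68 ± 0.88 in TugelaDn2 and 6.27 ± 0.91 in TugelaDn5 (SD, n = 3 each). Ta.22984.1.S1_x_at was far brighter, at 13.62 ± 0.42 and 14.79 ± 0.48 against 11.72 ± 0.44 and 11.94 ± 0.48 in the same order. Ta.97.1.S1_at had 8.05 ± 1.34 in Tugela and 7.95 ± 0.48 in TugelaDn5, against 11.00 ± 0.26 in TugelaDn1 and 10.84 ± 0.48 in TugelaDn2 (n = 3 each).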

How the data were processed

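Total RNA of infested leaves was labelled with biotin and hybridised to 13 single-colour Affymetrix wheat arrays, 12 biological repeats in all. Per probe set, a linear intensity was deposited, which the authors had scaled to a mean of 500.1 after trimming 2% of the values at each end. Which software summarised the probes is not given in the sources used here. Few arrays and dim signal limit the precision, since 19.3% to 21.4% of an array's values lay below the floor of 16. After removal of 111 control probe sets, values were floored, taken to log2 and tested with limma 3.58.1 in R 4.3.3 (1 fit over all lines, no covariate, Benjamini-Hochberg over 61179 probe sets within a comparison, threshold 0.05). Where a repeat lay at the floor, folds are lower bounds for values floored in this way, and for dim probe sets they shrink as the floor is raised. The procedure was tested on simulated data. Groups followed title and genotype, although TugelaDn1 stands in the description field of samples from TugelaDn2 and TugelaDn5.

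The platform's probe table pairs 1273 probe sets with 1 gene, of which 1 was a member. The rule for naming took every member paired with a gene, the 6 widest gaps per pairing and direction, and the 3 probe sets on each side of the threshold. The members, lists and tests were chosen with earlier results of these data known. Other floors, scalings, gaps and levels, single arrays and the omission of each repeat were tried.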

Additional observations from a re-analysis of the deposited data

How the results depend on the processing

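The number of probe sets depended mainly on the gap that was required. It was 27 at a gap of 0.5 (21 for Tugela with TugelaDn1, 2 for Tugela with TugelaDn2 and 4 for Tugela with TugelaDn5) and 2 at a gap of 1.5 or 2 (2, 0 and 0), namely Ta.23352.1.S1_at and Ta.3087.2.A1_at. All 10 were found again with floors of 0, 5 and 6 on the log2 scale in place of 4, with either array of TugelaDn5 repeat 3 and without any single repeat. Those floors lay below every repeat that set a gap, and leaving out a repeat can only keep or widen a gap. Apart from a higher mean falling under 8, no member could be lost in this way, so little is read from it. Tugela with TugelaDn5 gave 1 in place of 2 with a floor of 7, with quantile normalization and with a higher mean of at least 9, each time without TaAffx.9022.1.S1_at, Ta.7275.1.S1_at was lost with the floor of 7 and the mean of 9, and TaAffx.52428.1.S1_at with the mean of 9. Tugela with TugelaDn2 gave 1 with a higher mean of at least 7. Without single repeats the total ranged from 10 to 20 and the pairings, in the order above, from 8 to 14, from 0 to 4 and from 2 to 5. The total was 20 without TugelaDn1 repeat 3, with 14 and 4 for Tugela with TugelaDn1 and with TugelaDn2, and Tugela with TugelaDn5 gave 4 without Tugela repeat 1 and 5 without TugelaDn2 repeat 3. Of 440 repeats of the tests inside pairs, 1 changed the call, namely Ta.7275.1.S1_at with a floor of 7 (log2 difference of -1.05 between TugelaDn2 and TugelaDn5, limma adjusted p = 0.042), which makes 1 of 8 called there.

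Over all probe sets, limma called 898 for Tugela with TugelaDn1 against the others, 1623 and 1652 with floors of 5 and 6, 424 with a floor of 0, 2117 when eBayes was run with its trend and robust options, 1747 when testing was limited to probe sets above the median level and 551 to 791 without single repeats. Tugela with TugelaDn2 gave 400, with 238 at a floor of 0 and 855 with these options. Tugela with TugelaDn5 gave 326, with 203 at a floor of 0, 490 at a floor of 6 and 568 with these options. The replicate block gave 526 for Tugela with TugelaDn1 and changed no call of a member. Whether the repeat numbers pair the samples across lines is not known. Of 18 correlations between deviations of same-numbered repeats, 2 exceeded 0.1 (range -0.11 to 0.14). Without the same correlations for repeats of unlike number, these values cannot decide it. The causes of these changes were not tested. As above, a limma call for a pairing need not be a division of pair against pair, since a single line that stands apart can also give one.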

Other observations

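A further 8 probe sets had a gap of at least 1 but a higher mean under 8, and 5 of them divided Tugela with TugelaDn2 from TugelaDn1 with TugelaDn5, the pairing that gave 0 brighter ones. They were identified after their values were seen. The brightest of the 5, Ta.5897.3.S1_at, lay at 8.06 ± 0.10 in Tugela and 6.76 ± 1.01 in TugelaDn2 but at 4 ± 0 in TugelaDn1 and 4.03 ± 0.06 in TugelaDn5 (SD, n = 3 each). Ta.5897.3.S1_x_at carries the name of the same transcript and divided the same pairs in the same direction. Its pair means were 8.457 and 6.196, above the level threshold, but its gap was only 0.445. TaAffx.30388.1.S1_at was the only one of the 5 that was higher in TugelaDn1 (6.41 ± 0.21) and TugelaDn5 (6.68 ± 0.15) than in Tugela (4.29 ± 0.10) and TugelaDn2 (4.30 ± 0.52). Of the others, TaAffx.43652.2.A1_at was just under the level threshold, with Tugela at 4.67 ± 1.15 and TugelaDn1 at 5.30 ± 1.25, below TugelaDn2 at 8.21 ± 0.30 and TugelaDn5 at 7.69 ± 0.28 (n = 3 each). Ta.18372.1.S1_at was the only probe set with a gap of 1 that was higher in Tugela (6.25 ± 0.39) and TugelaDn5 (5.71 ± 0.36) than in TugelaDn1 (4.01 ± 0.01) and TugelaDn2 (4.12 ± 0.20). None of the 8 is paired with a gene in the tables used.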
